A study of Mus musculus with 8 samples.

Results

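The genes described here are 10 G protein-coupled receptors through which macrophages read inflammatory signals outside the cell: Gpr84, Hcar2, Fpr1, Fpr2, Ptafr, Adora2a, Adora2b, P2ry6, Ptger2 and Ptger4. They were taken by symbol from the 55801 genes of the deposited table, each symbol matched 1 row, and all 10 were among the 12189 genes that were tested, those with a mean of at least 1 TPM. Gpr84 was chosen because its level was lower with C498 under LPS in these same samples, and the other 9 were set beside it for comparison. Its values in that contrast, C498+LPS vs LPS, are therefore a description and carry no test. RNA was sequenced from mouse peritoneal macrophages in 4 groups of 2 samples. The NC group received vehicle, and the LPS group received LPS, the endotoxin of Gram-negative bacteria, at 100 ng/ml for 4 h. The C498 group received the compound C498 at 15 µM, and the C498+LPS group received C498 for 0.5 h before LPS. The study describes its mice as male C57BL/6 animals of 6 to 8 weeks, and all groups share cells flushed from the abdominal cavity 72 h after an injection of thioglycollate broth, which draws leukocytes into it. Neither the labels nor the methods say whether the 2 samples of a group came from separate mice or cultures, so p-values measure the spread between these samples, which may be technical.

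Receptors of this kind cross the membrane 7 times and pass a ligand's signal to G proteins inside the cell. Those that couple to Gi, such as the formyl peptide receptors, Gpr84 and Hcar2, lower cyclic AMP. Of these, the formyl peptide receptors and Gpr84 drive migration or the release of radicals. The Gs-coupled adenosine A2 receptors and the prostaglandin E2 receptors EP2 and EP4 raise cyclic AMP and restrain cytokine output. Gq-coupled receptors such as P2Y6 release calcium from internal stores. All 10 receptors carry the Pfam domain of the rhodopsin family in the deposited annotation, 8 are listed there under neuroactive ligand-receptor interaction, 3 (Hcar2, Adora2a and Ptger2) under cAMP signaling, and Gpr84 under no pathway.

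Levels are TPM, which divides reads by gene length and scales every library to the same total, so levels can be set side by side between genes. The number of reads behind a value is unknown. Genes were fitted with limma over all 8 samples, and those that changed 2-fold or more on the scale of TPM + 1 with a p, Benjamini-Hochberg adjusted over every tested gene, no higher than 0.05 were called upregulated or downregulated. Adjusted p come from that fit unless a left-out sample or another setting is named beside them. A log2 change on this scale is drawn towards 0 for genes at a few TPM. In bulk RNA, fewer cells of a type and less RNA per cell cannot be told apart.

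LPS separated the receptors into groups that moved in opposite directions. Of the 9 receptors other than Gpr84, whose LPS samples helped to choose it, 5 were called upregulated in LPS vs NC (Hcar2, Fpr1, Fpr2, Adora2a and Adora2b), against 5.55% of all tested genes, and 3 were called downregulated (P2ry6, Ptger2 and Ptger4), against 6.68%. Ptafr was not called. The median log2 change of the 9 was 1.56, beside -0.17 over all tested genes. C498 alone lowered 4 of the receptors (Gpr84, Fpr1, Fpr2 and P2ry6) in C498 vs NC, where 1.36% of tested genes were downregulated, and raised 1 (Hcar2), where 5.64% were upregulated. The median of the 10 was -0.40 in that comparison, beside 0.015 over all tested genes. When LPS followed C498, 5 of the 9 were upregulated in C498+LPS vs C498 (background 2.52%) and 1, P2ry6, was downregulated (3.13%). Among these 9, 3 were downregulated in C498+LPS vs LPS (Fpr1, Fpr2 and Adora2a), with 2.18% of tested genes called in that direction, and 1, Ptger4, was upregulated, with 5.39%.

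The samples of LPS and NC overlapped for none of the 9 receptors other than Gpr84, with both LPS samples above both NC samples for 6 (19.3% of all tested genes) and below them for 3 (42.2%). In C498 and NC, 1 of the 10 lay above (29.3%) and 5 below (28.4%), and 4 overlapped. Between C498+LPS and C498, 5 of the 9 lay above (17.4%), 3 below (48.8%), and Ptafr overlapped. Between C498+LPS and LPS, 3 of the 9 lay above (31.9%) and 5 below (30.9%), and Adora2b overlapped. Relative to NC, the C498+LPS samples were above for Hcar2, Adora2a and Adora2b (25.9%), below for 5 of the 9 (42.4%), and overlapping for Ptafr.

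**Figure D1:**
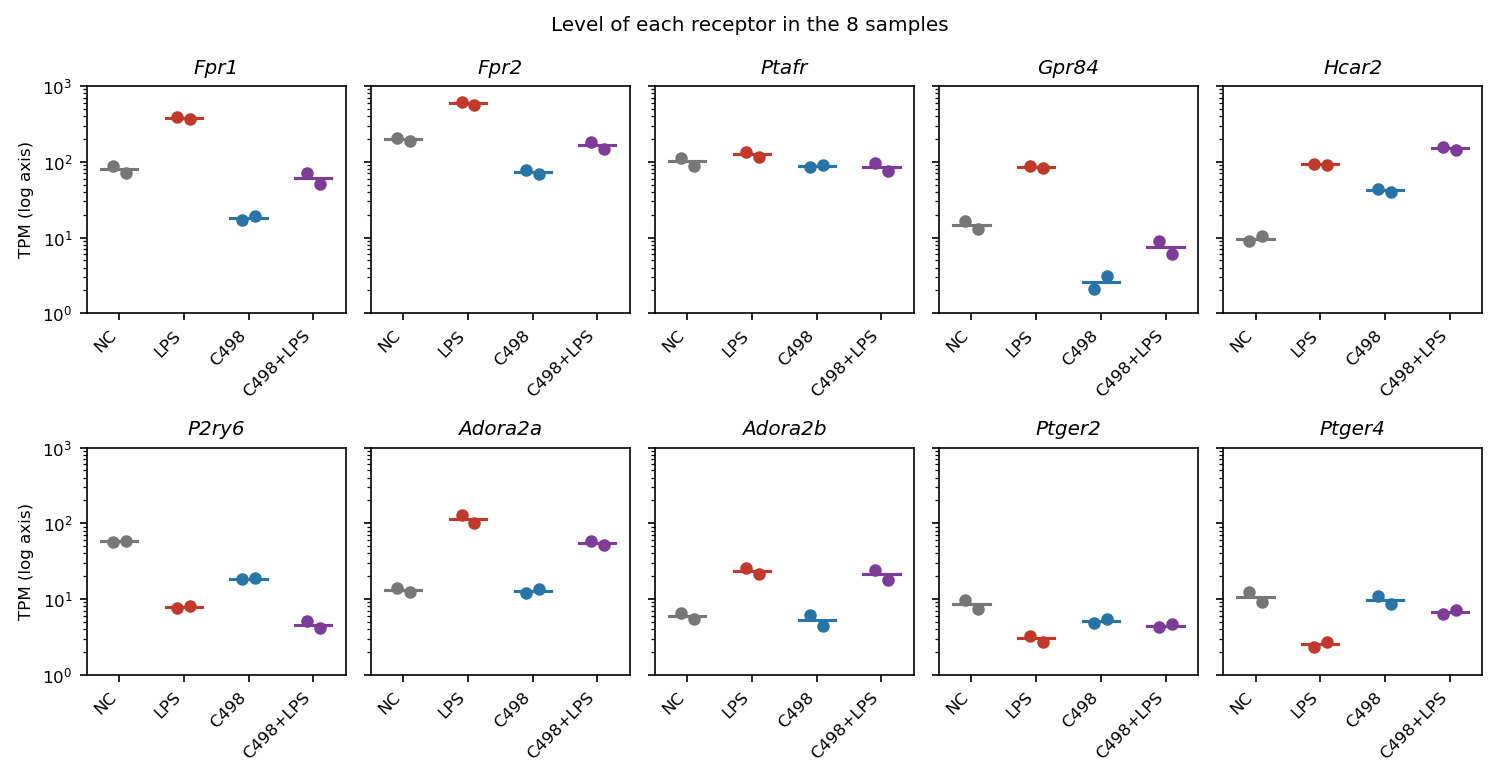
TPM level (vertical axis, logarithmic) of each receptor in the 2 samples of NC, LPS, C498 and C498+LPS. Points are samples and bars are group means. Fpr1, Fpr2 and Gpr84 are highest in LPS and lowest in C498, and Hcar2 is highest in C498+LPS. P2ry6 and Ptger2 are highest in NC, where Ptger4 also has its highest mean, although its NC and C498 samples overlap.

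Markers of other cells moved with C498 and stand beside every effect of C498 given below. The summed level of 12 neutrophil markers was 244 to 263 TPM in NC and 226 to 245 TPM in LPS. It was 136 to 145 TPM in C498 and 129 to 157 TPM in C498+LPS. This sum was mostly Mmp8, S100a8 and Csf3r, with means of 109.1, 102.1 and 35.8 TPM in NC. Of the 12 markers, 5 were tested and 7 were not, with Elane and Ngp at 0 in every library. The median log2 change of the 5 was -0.91 in C498 vs NC and -1.26 in C498+LPS vs LPS, beside 0.015 and 0.0065 over all tested genes. In the same order, 1 (20%) and 2 (40%) were called downregulated, beside 1.36% and 2.18% of all tested genes. The neutrophil-defining Ly6g was at 0 in 7 libraries and at 2.62 TPM in C498 replicate 2, and S100a9 was listed at 0 in 5 libraries and at most at 0.86 TPM. The summed level of 5 fibroblast markers was 150.2 to 192 TPM in NC and 176 to 201 TPM in LPS. It was 633 to 750.0 TPM in C498 and 618 to 911 TPM in C498+LPS. All 5 were called upregulated in C498 vs NC (100%, beside 5.64% of all tested genes). In C498+LPS vs LPS, 4 of them were (80%, beside 5.39%). For 4 mesothelial markers the sums were 3.67 to 4.33 TPM in NC and 4.32 to 4.65 TPM in LPS. They were 12.7 to 18.6 TPM in C498 and 13.9 to 21.4 TPM in C498+LPS. Of these 4, 3 were tested, with 2 (66.7%) called upregulated both in C498 vs NC and in C498+LPS vs LPS. The 8 macrophage markers were all tested and their sum, mostly Lyz2, was 20100 to 20590 TPM in NC, 17940 to 18470 TPM in LPS, 15940 to 16080 TPM in C498 and 12420 to 14210 TPM in C498+LPS. The median log2 change of the 8 was -0.15 in LPS vs NC, -0.27 in C498 vs NC, -0.37 in C498+LPS vs C498 and -0.63 in C498+LPS vs LPS. Over all tested genes these medians were -0.17, 0.015, -0.18 and 0.0065. Among the 8, Cd14, the LPS co-receptor, went the other way, with means of 244, 1301, 675 and 1795 TPM in NC, LPS, C498 and C498+LPS. It was called upregulated in the first 3 of these comparisons (12.5% of the 8 in each, beside 5.55%, 5.64% and 2.52% of all tested genes). Its interaction was -1.001 (adjusted p = 0.0214). Csf1r was called downregulated in C498+LPS vs C498 (-1.14, adjusted p = 0.00795), 12.5% of the 8 beside 3.13% of all tested genes. Mast cell markers summed to between 8.81 and 22.9 TPM and B cell markers to between 2.48 and 10.1 TPM. T cell markers stayed at or below 1.89 TPM and eosinophil markers at or below 2.21 TPM in sum. The part of these other cells in the changes of the receptors was not tested.

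The medium-chain fatty acid receptor Gpr84 was higher with LPS and lower wherever C498 had been given. Gpr84 (ENSMUSG00000063234) lies on the minus strand of chromosome 15, from 103308235 to 103310612 in GENCODE M21 on GRCm38, with 2 exons. Its level was 16.5 and 12.95 TPM in NC, 87.9 and 82.0 TPM in LPS, 2.12 and 3.07 TPM in C498, and 9.04 and 5.98 TPM in C498+LPS. No groups overlapped, and both C498+LPS samples lay below both NC samples. Its log2 change in LPS vs NC was 2.46 (standard error 0.23), and mean TPM was 5.76-fold higher than in NC. The LPS samples enter the contrast for which the gene was chosen, so this value is a description with no test. C498 vs NC compares none of the samples of that contrast, although the fit takes its spread from all 8, and there C498 lowered Gpr84 to a log2 value of -2.13 relative to NC (adjusted p = 0.0017, standard error 0.23), a mean of 2.60 ± 0.67 TPM against 14.7 ± 2.53 TPM (SD, n = 2 per group). A limma fit of the NC and C498 samples alone gave an adjusted p of 0.0396.

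Gpr84 had, in the contrast that chose it, a log2 change of -3.36 for C498+LPS vs LPS (standard error 0.23), the 23rd in size among the 12189 tested genes, and mean TPM was 11.3-fold lower (7.51 ± 2.16 against 84.9 ± 4.14 TPM). Between C498+LPS and C498 the log2 change of Gpr84 was 1.23 (standard error 0.23) and the ratio of mean TPM 2.89, which rest on the same C498+LPS samples and also carry no test. That log2 change was 1.04 without C498 replicate 1 and 1.42 without C498 replicate 2. It was 0.97 without C498+LPS replicate 1 and 1.49 without C498+LPS replicate 2. The difference between the LPS responses with and without C498 was -1.23 on the log2 scale (standard error 0.32), again a description. In the annotation, 681 exon bases of Gpr84 are also exon of Gm49482 on the opposite strand. Gm49482 was at 0 and 4.15 TPM in NC, 31.5 and 30.2 TPM in LPS, 1.79 and 1.05 TPM in C498, and 0 and 1.83 TPM in C498+LPS. Whether the counting used strand is not stated, so reads from the shared bases cannot be assigned to either gene with certainty.

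The 5 genes whose profile across the 8 samples was most like that of Gpr84, by Pearson's r of log2(TPM + 1), were Tmem229b (0.997), Trim34a (0.993), Dhx58 (0.993), Pid1 (0.993) and Irf5 (0.992). Irf5 encodes a transcription factor of the interferon regulatory family and Dhx58 an RNA helicase related to RIG-I. Their means in NC, LPS, C498 and C498+LPS were, for Tmem229b, 17.2, 39.4, 6.64 and 10.9 TPM, and for Irf5, 131.9, 192, 93.7 and 109.9 TPM. The 8 points come from 4 groups and the 5 genes were picked from 12189, so these values are a description.

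The formyl peptide receptors Fpr1 and Fpr2, which guide phagocytes to peptides released by bacteria and damaged mitochondria, followed the same order of groups as Gpr84. Both rose with LPS, both fell with C498, and both fell in C498+LPS vs LPS. They are neighbours on chromosome 17 with 3883 bases between them, Fpr1 on the minus strand from 17876471 to 17883940 and Fpr2 on the plus strand from 17887824 to 17893952 (GRCm38), so that their start sites face away from each other across this gap.

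Because Gpr84, Fpr1 and Fpr2 moved together, and Ptger4 (described below) moved the other way under LPS, the sequence before their start sites is shown, from RefSeq on GRCm38.p6, 5′ to 3′ on the strand of the gene. Capitals mark matches on either strand to 6 short motifs: kappaB-like (GGG and CC with any 5 bases between them), GAS (bound by STAT factors) TTCNNNGAA, AP-1 TGANTCA, PU.1 core GAGGAA, ISRE-like (GAAA repeated after any 2 bases) and the cyclic AMP-response core TGACG. For Fpr1 (chr17:17883940-17884189, minus strand), Fpr2 (chr17:17887574-17887823, plus strand) and Ptger4 (chr15:5244188-5244437, minus strand) these are the 250 bases before the start. For Gpr84 (chr15:103310613-103310688, minus strand) they are the first 76 of those 250 bases, which lie before the annotated GENCODE start as well.
Gpr84: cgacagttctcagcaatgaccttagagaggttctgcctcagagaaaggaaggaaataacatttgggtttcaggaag
Fpr1: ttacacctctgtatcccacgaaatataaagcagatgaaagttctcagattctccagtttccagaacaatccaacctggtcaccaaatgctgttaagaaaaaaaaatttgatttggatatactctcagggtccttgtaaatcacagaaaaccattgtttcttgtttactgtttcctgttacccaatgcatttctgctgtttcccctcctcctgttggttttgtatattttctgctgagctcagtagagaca
Fpr2: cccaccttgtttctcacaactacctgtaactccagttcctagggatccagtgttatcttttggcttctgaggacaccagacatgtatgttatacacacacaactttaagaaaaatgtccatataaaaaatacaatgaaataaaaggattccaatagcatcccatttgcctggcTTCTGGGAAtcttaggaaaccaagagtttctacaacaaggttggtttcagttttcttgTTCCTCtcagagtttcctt
Ptger4: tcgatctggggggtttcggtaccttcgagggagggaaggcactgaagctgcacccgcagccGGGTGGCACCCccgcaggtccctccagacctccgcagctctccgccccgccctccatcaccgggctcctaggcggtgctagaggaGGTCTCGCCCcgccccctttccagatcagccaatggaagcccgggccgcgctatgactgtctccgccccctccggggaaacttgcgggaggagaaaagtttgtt

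The table of promoters held 7 of the 10 receptors (Gpr84, Fpr1, Fpr2, Ptafr, Adora2b, Ptger2 and Ptger4). No match to any of the 6 motifs lay in the full 250 bases of Gpr84, Fpr1 or Ptger2. For Gpr84 only 76 of these bases lie before the GENCODE start, and sequence further before it was not searched. Fpr2 had a GAS match from -77 to -69 relative to its start, a motif found in 7.02% of all 32851 promoters of this length, and a PU.1 core on the opposite strand from -19 to -14 (23.3% of promoters). Ptafr had a PU.1 core match on the opposite strand from -242 to -237. Ptger4 and Adora2b held kappaB-like matches, some of which overlap because both strands were searched, as did 45.8% of all promoters. These windows were 66.8% and 69.6% GC, compared with 46.0%, 38.4% and 38.8% for Gpr84, Fpr1 and Fpr2 and a median of 52.4% over all promoters. A match is a stretch of letters and not a site shown to be bound.

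Fpr1 (ENSMUSG00000045551) was at 87.1 and 71.98 TPM in NC, 389 and 367 TPM in LPS, 16.9 and 19.3 TPM in C498, and 71.0 and 50.4 TPM in C498+LPS. No groups overlapped, and the C498+LPS samples stood just below NC. Its log2 change was 2.24 in LPS vs NC (standard error 0.18, adjusted p = 0.000174), -2.08 in C498 vs NC (adjusted p = 0.000695) and 1.68 in C498+LPS vs C498 (adjusted p = 0.0015). It fell by 2.64 on the log2 scale in C498+LPS vs LPS (adjusted p = 0.000461), and mean TPM was 6.22-fold lower. Among the 66 tested receptors of the rhodopsin family it stood next to Gpr84, which had the most negative value in that comparison.

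Fpr2 (ENSMUSG00000052270), which also recognizes annexin A1 and serum amyloid A, was the most abundant receptor of the 10 in NC, LPS and C498+LPS. It was at 208 and 191 TPM in NC, 612 and 564 TPM in LPS, 77.5 and 68.6 TPM in C498, and 184 and 149 TPM in C498+LPS, with no overlap between groups. The log2 change was 1.56 in LPS vs NC (adjusted p = 0.000199), -1.44 in C498 vs NC (adjusted p = 0.000787) and -1.82 in C498+LPS vs LPS (standard error 0.13, adjusted p = 0.000495). In pretreated cells LPS raised it by 1.17 (adjusted p = 0.00164). Neither Fpr1 (interaction of C498 and LPS -0.56, 95% interval -1.15 to 0.022, adjusted p = 0.472) nor Fpr2 (-0.38, interval -0.80 to 0.034, adjusted p = 0.491) passed the test for a different response to LPS under C498. Of the 1295 distinct 50-base stretches in the transcripts of Fpr2, 408 (31.5%) also occur in transcripts of other genes, 368 of them in Gm5966 and 82 in Fpr3, so a part of its reads could have been divided among them. The annotation also places 48 exon bases of Fpr2 in Fpr3 on the same strand. Gm5966 was at most at 0.92 TPM and Fpr3 at 5.30 TPM in any sample, far below Fpr2.

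The ratio of Fpr2 to Fpr1 within a sample was 2.39 and 2.65 in NC, 1.57 and 1.54 in LPS, 4.59 and 3.57 in C498, and 2.60 and 2.95 in C498+LPS. LPS samples had the lowest ratios and C498 samples the highest, with NC and C498+LPS between them and overlapping.

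Ptafr, the receptor for platelet-activating factor, passed the test in no comparison. Ptafr (ENSMUSG00000056529, chromosome 4, from 132564067 to 132582683) was at 113 and 88.8 TPM in NC, 137 and 117 TPM in LPS, 85.3 and 91.3 TPM in C498, and 96.7 and 75.9 TPM in C498+LPS. Its log2 changes were 0.33 in LPS vs NC (95% interval -0.050 to 0.72, adjusted p = 0.17), -0.18 in C498 vs NC (interval -0.56 to 0.20, adjusted p = 0.483) and -0.56 in C498+LPS vs LPS (interval -0.94 to -0.17, adjusted p = 0.0594). Both C498+LPS samples lay below both LPS samples. The value for C498+LPS vs C498 was -0.042 (adjusted p = 0.894), with the opposite sign when samples were centred on their median gene (0.17) or quantile normalized (0.012).

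**Figure D2:**
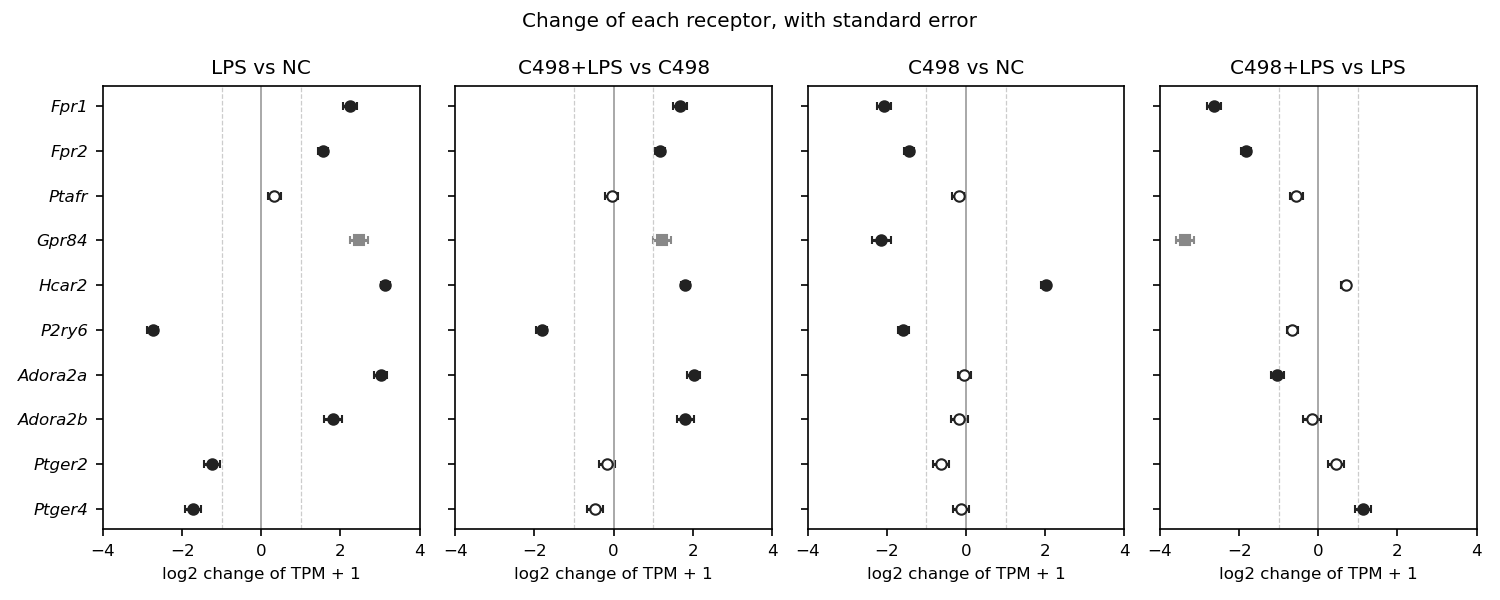
Log2 change of TPM + 1 (horizontal axis) of each receptor in 4 comparisons, with standard error bars; filled circles were called, open circles were not, dashed lines mark a 2-fold change, and grey squares are Gpr84 in comparisons that use the samples it was chosen on, with no test. Fpr1, Fpr2 and Gpr84 lie right of 0 in both LPS comparisons and left of 0 in both C498 comparisons, while Hcar2 lies right of 0 in all 4.

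Hcar2, the Gi-coupled receptor for niacin and the ketone body beta-hydroxybutyrate, was the exception among the receptors that LPS raised, since C498 raised it as well. Hcar2 (ENSMUSG00000045502, chromosome 5, minus strand, 123863570 to 123865499, a single exon) was at 8.88 and 10.4 TPM in NC, 94.6 and 90.1 TPM in LPS, 44.1 and 39.7 TPM in C498, and 157 and 143 TPM in C498+LPS. The groups stood apart in the order NC, C498, LPS, C498+LPS. The log2 change was 3.14 in LPS vs NC (standard error 0.12, adjusted p = 6.74e-06), 2.01 in C498 vs NC (adjusted p = 0.000153) and 1.81 in C498+LPS vs C498 (adjusted p = 0.00019). With LPS present in both groups it was 0.69 (95% interval 0.41 to 0.97, adjusted p = 0.0092), which is under 2-fold and so not called.

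The response of Hcar2 to LPS, a 9.59-fold ratio of mean TPM without C498 and 3.57-fold with it, differed by -1.32 on the log2 scale in the interaction of C498 and LPS (standard error 0.17, adjusted p = 0.031). Hcar2 was the only 1 of the 9 receptors other than Gpr84 that passed this test, for which 0.394% of tested genes were called with a smaller and 0.0738% with a larger value. The call was lost under 10 of 16 alternatives, with adjusted p up to 0.169 (without LPS replicate 1), while the difference stayed between -1.43 and -1.22.

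The ratio of Hcar2 to Gpr84 within a sample is given as a description, since Gpr84 was chosen on its LPS and C498+LPS values. It was 0.54 and 0.80 in NC, 1.08 and 1.10 in LPS, 20.8 and 12.9 in C498, and 17.3 and 23.9 in C498+LPS. It was highest in the samples with C498.

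P2ry6, the receptor for UDP leaking from damaged cells, was lowered by LPS and by C498. P2ry6 (ENSMUSG00000048779, chromosome 7, minus strand, 100937630 to 100974649) was at 56.9 and 58.2 TPM in NC, 7.50 and 8.01 TPM in LPS, 18.3 and 18.7 TPM in C498, and 5.06 and 4.10 TPM in C498+LPS. The replicates lay close together and no groups overlapped. Its log2 change was -2.74 in LPS vs NC (standard error 0.14, adjusted p = 2.75e-05), -1.58 in C498 vs NC (adjusted p = 0.000763) and -1.81 in C498+LPS vs C498 (adjusted p = 0.000374). Mean TPM was 7.42-fold lower in LPS than in NC and 12.6-fold lower in C498+LPS than in NC. Under LPS, C498 added a change of -0.65 (95% interval -0.98 to -0.33, adjusted p = 0.0193) that did not reach 2-fold, and the interaction of 0.93 was not called (adjusted p = 0.123).

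Both adenosine A2 receptors, through which extracellular adenosine raises cyclic AMP, were induced by LPS, and only Adora2a was called lower when C498 preceded LPS. Adora2a (ENSMUSG00000020178, chromosome 10, from 75316877 to 75334784) was at 14.1 and 12.4 TPM in NC, 130.4 and 99.5 TPM in LPS, 12.1 and 13.5 TPM in C498, and 59.0 and 51.4 TPM in C498+LPS. The NC and C498 samples overlapped, and the C498+LPS samples lay between these and LPS. Adora2a rose by 3.02 on the log2 scale in LPS vs NC (standard error 0.16, adjusted p = 3.32e-05) and by 2.03 in C498+LPS vs C498 (adjusted p = 0.00044), and C498 vs NC gave -0.044 (95% interval -0.42 to 0.33, adjusted p = 0.879). It fell by 1.04 in C498+LPS vs LPS (adjusted p = 0.00657), close to the 2-fold threshold. That call was lost without LPS replicate 1 (-0.84, adjusted p = 0.0518), without C498+LPS replicate 2 (-0.94, adjusted p = 0.0629) and with quantile normalization (-0.91). The smaller response to LPS under C498, an interaction of -0.99 (interval -1.53 to -0.46), did not pass the correction (adjusted p = 0.158).

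Adora2b (ENSMUSG00000018500, chromosome 11, from 62248984 to 62266453), the low-affinity adenosine receptor, was at 6.53 and 5.46 TPM in NC, 25.9 and 21.4 TPM in LPS, 6.21 and 4.37 TPM in C498, and 24.4 and 17.9 TPM in C498+LPS. NC overlapped with C498, and LPS overlapped with C498+LPS. Without C498, LPS raised it by 1.81 on the log2 scale (standard error 0.22, adjusted p = 0.00138) and after C498 by 1.82 (adjusted p = 0.00291). The difference between these responses was 0.0007, with a 95% interval of -0.74 to 0.74 that leaves room for a change of over 1.5-fold in either direction. Its change was -0.16 in C498+LPS vs LPS (interval -0.69 to 0.36, adjusted p = 0.679). Within a sample, Adora2a exceeded Adora2b by a ratio of 2.15 and 2.27 in NC, 5.04 and 4.65 in LPS, 1.94 and 3.09 in C498, and 2.42 and 2.88 in C498+LPS, so the ratio was highest in the LPS samples.

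The prostaglandin E2 receptors EP2 and EP4, which also raise cyclic AMP, were lowered by LPS, and EP4 was called higher when C498 preceded LPS. Ptger4 (ENSMUSG00000039942, chromosome 15, minus strand, 5206661 to 5244187) was at 12.3 and 9.21 TPM in NC, 2.36 and 2.72 TPM in LPS, 11.03 and 8.54 TPM in C498, and 6.26 and 7.15 TPM in C498+LPS. The NC and C498 samples overlapped, and C498+LPS lay between them and LPS. Its log2 change was -1.72 in LPS vs NC (standard error 0.21, adjusted p = 0.00128), -0.12 in C498 vs NC (95% interval -0.60 to 0.37, adjusted p = 0.726) and -0.48 in C498+LPS vs C498 (interval -0.96 to 0.0071, adjusted p = 0.161). It rose by 1.12 in C498+LPS vs LPS (adjusted p = 0.012), and mean TPM was 2.64-fold higher.

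The call for Ptger4 was lost without LPS replicate 1 (adjusted p = 0.0891), LPS replicate 2 (0.0668) or C498+LPS replicate 2 (0.0914), and with quantile normalization the change was 0.96. The interaction was 1.24 (standard error 0.29, adjusted p = 0.17). Of its exon bases, 1015 are shared with Gm15937 on the opposite strand, which was at most at 0.16 TPM, and 82 with Ttc33, also on the opposite strand and at 11.02 to 23.7 TPM.

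Ptger2 (ENSMUSG00000037759, chromosome 14, from 44988195 to 45003820), the EP2 gene, was at 9.78 and 7.27 TPM in NC, 3.29 and 2.74 TPM in LPS, 4.83 and 5.4 TPM in C498, and 4.23 and 4.70 TPM in C498+LPS. NC was highest and LPS lowest, and C498+LPS lay just under C498. It fell by 1.24 in LPS vs NC on the log2 scale (standard error 0.20, adjusted p = 0.00427) and by 0.98 with quantile normalization, which ends the call. The value was -0.63 in C498 vs NC (95% interval -1.10 to -0.16, adjusted p = 0.0779) and 0.45 in C498+LPS vs LPS (interval -0.025 to 0.92, adjusted p = 0.182). For C498+LPS vs C498 it was -0.16 (adjusted p = 0.632), and 0.053 with centring and 0.047 with quantile normalization. The ratio of Ptger4 to Ptger2 was 1.25 and 1.27 in NC, 0.72 and 0.99 in LPS, 2.28 and 1.58 in C498, and 1.48 and 1.52 in C498+LPS, lowest in the LPS samples.

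Summed over the 10 receptors, the level was 533 and 467 TPM in NC, 1489 and 1355 TPM in LPS, 278 and 273 TPM in C498, and 616 and 509 TPM in C498+LPS. The makeup of this sum differed between groups. Fpr1 and Fpr2 made up a mean of 15.9% and 39.9% of it in NC and 26.6% and 41.4% in LPS, against 6.56% and 26.5% in C498 and 10.7% and 29.6% in C498+LPS. Hcar2 took 1.95% in NC, 6.51% in LPS, 15.2% in C498 and 26.7% in C498+LPS. P2ry6 went from 11.6% in NC to 0.55% in LPS and 0.81% in C498+LPS, and Gpr84 was at 2.94% in NC, 5.98% in LPS, 0.94% in C498 and 1.32% in C498+LPS.

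**Figure D3:**
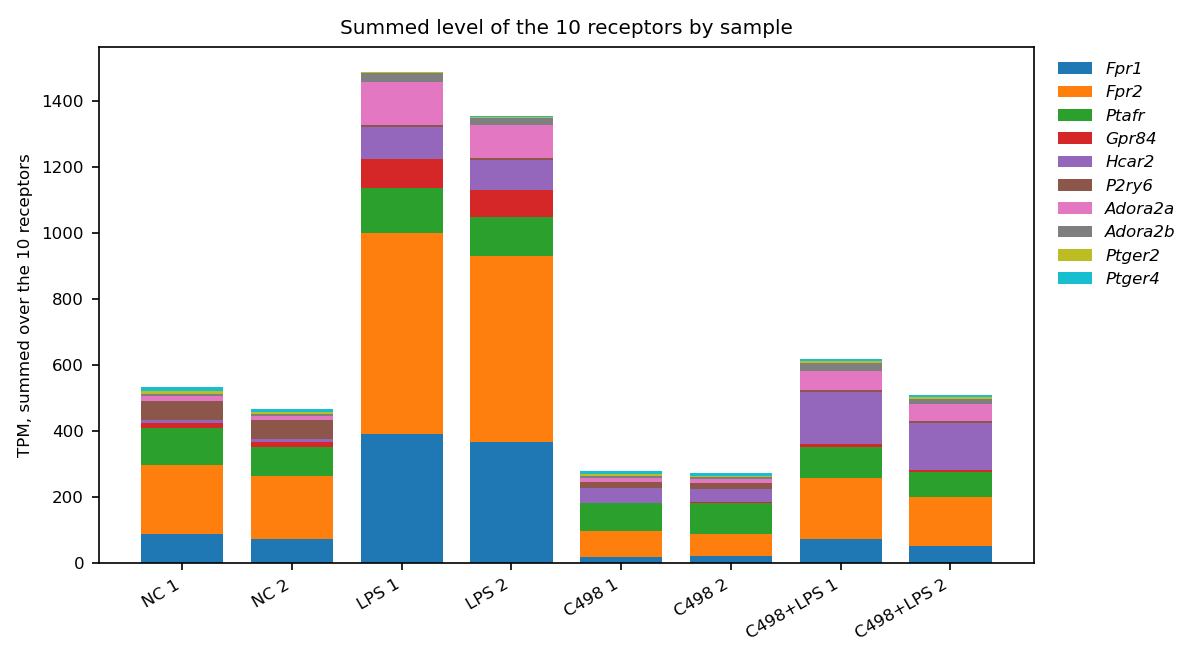
TPM summed over the 10 receptors (vertical axis) in each of the 8 samples, with the part of each receptor in colour. The LPS samples reach 1489 and 1355 TPM, mostly from Fpr1 and Fpr2, and Hcar2 has its largest share, 25.4% and 28.0%, in the C498+LPS samples.

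By mean level the order in NC was Fpr2, Ptafr, Fpr1, P2ry6, Gpr84, Adora2a, Ptger4, Hcar2, Ptger2 and Adora2b, where the samples of Gpr84 and Adora2a overlapped, as did those of Ptger4 and Hcar2 and of Hcar2 and Ptger2. In LPS it was Fpr2, Fpr1, Ptafr, Adora2a, Hcar2, Gpr84, Adora2b, P2ry6, Ptger2 and Ptger4, with overlap only between Ptafr and Adora2a. In C498 it was Ptafr, Fpr2, Hcar2, P2ry6, Fpr1, Adora2a, Ptger4, Adora2b, Ptger2 and Gpr84, where P2ry6 overlapped with Fpr1 and Adora2b with Ptger2. In C498+LPS it was Fpr2, Hcar2, Ptafr, Fpr1, Adora2a, Adora2b, Gpr84, Ptger4, P2ry6 and Ptger2, with overlap of Fpr2 and Hcar2, Fpr1 and Adora2a, Gpr84 and Ptger4, and P2ry6 and Ptger2. Gpr84 thus stood at the end of the order in C498, where 14% of all tested genes had a lower mean, and in LPS 86.9% did.

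C498 vs NC and C498+LPS vs LPS share no samples, so the effect of C498 can be compared without and with LPS. Fpr1 and Fpr2 were called downregulated in both, with log2 changes of -2.08 and -2.64 for Fpr1 and -1.44 and -1.82 for Fpr2. P2ry6 (-1.58 and -0.65) and Hcar2 (2.01 and 0.69) kept their direction and were called only without LPS, whereas Adora2a (-0.044 and -1.04) and Ptger4 (-0.12 and 1.12) were called only with LPS. Of these 4, only Hcar2 had an interaction past the threshold, and that call was lost under 10 of 16 alternatives. Among the 56 other tested receptors of the rhodopsin family, 7 were upregulated (12.5%, beside 5.64% of all tested genes) and 8 downregulated (14.3%, beside 1.36%) in C498 vs NC. The numbers were 8 (14.3%, beside 5.39%) and 9 (16.1%, beside 2.18%) in C498+LPS vs LPS. In LPS vs NC, 7 of these 56 were upregulated (12.5%, beside 5.55%) and 16 downregulated (28.6%, beside 6.68%), and their median log2 change was -0.063, beside 1.56 over the 9 receptors other than Gpr84.

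**Figure D4:**
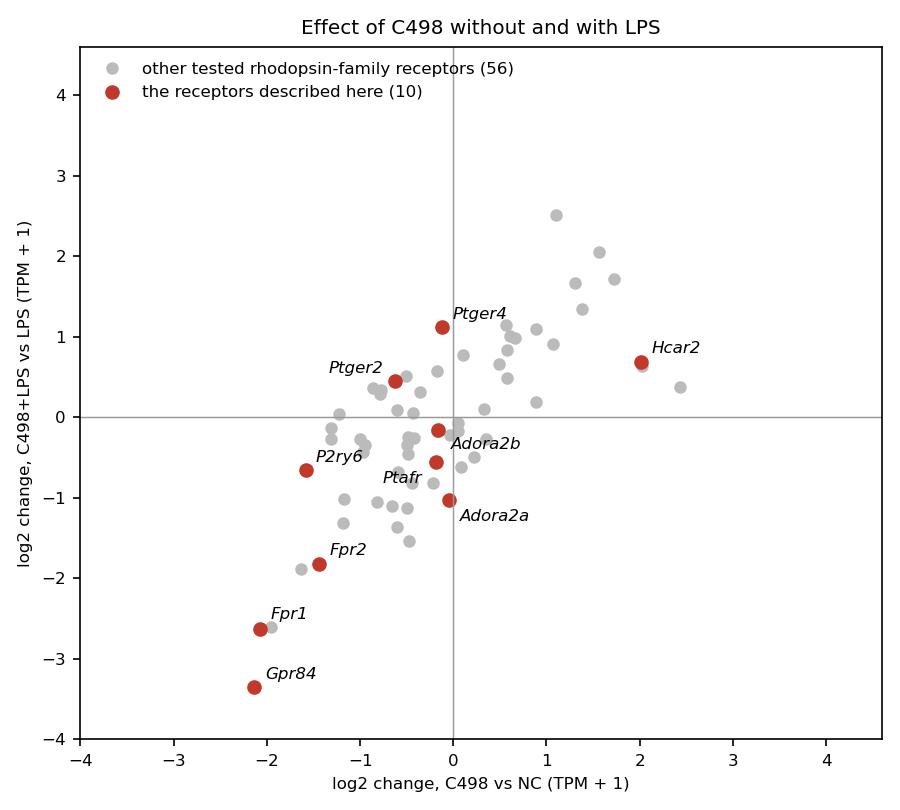
Log2 change in C498 vs NC (horizontal axis) against C498+LPS vs LPS (vertical axis) for the 66 tested receptors of the rhodopsin family; the 10 receptors described here are in red and the 56 others in grey. Gpr84 (-2.13 and -3.36), Fpr1 and Fpr2 lie at the lower left, Hcar2 at the right, and Ptger4 and Ptger2 above 0 on the vertical axis.

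Other receptors for the same ligands and close paralogs that bind other ligands formed a list of 15 genes of which 8 were tested, with 2 upregulated and 2 downregulated in LPS vs NC, 25% of the list each, beside 5.55% and 6.68% of all tested genes. P2ry14, which binds UDP-glucose, rose by a log2 change of 1.17 (adjusted p = 0.00473) and the formyl peptide receptor gene Fpr3 by 1.04 (adjusted p = 0.0199). Fpr3 shares the stretches given above with the far more abundant Fpr2, and the part of Fpr2 reads in its value was not tested. P2ry1, a receptor for ADP, fell by 1.83 (adjusted p = 0.00352) and the adenosine A3 gene Adora3 by 1.25 (adjusted p = 0.00861). In C498 vs NC the ADP receptor P2ry13 fell by 1.63 (adjusted p = 0.00426) and Adora3 by 1.31 (adjusted p = 0.014). Among LPS-treated cells C498 lowered 3 genes of the list, namely P2ry13 (-1.88), P2ry14 (-1.10) and the prostacyclin receptor Ptgir (-1.06), and none upregulated, while no gene of the list was called in C498+LPS vs C498. The downregulated genes were 25% of the list in C498 vs NC and 37.5% in C498+LPS vs LPS, beside 1.36% and 2.18% of all tested genes. The median of the list was -0.72 in C498 vs NC and -0.44 in C498+LPS vs LPS, beside 0.015 and 0.0065 over all tested genes. Hcar1, Ptgdr and Fpr-rs4 were listed at 0 in every sample.

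Of 27 further myeloid receptors 20 were tested, with 3 upregulated (15%, beside 5.55% of all tested genes) and 5 downregulated (25%, beside 6.68%) in LPS vs NC. The chemerin-binding Ccrl2 rose by a log2 change of 3.80 (adjusted p = 2.35e-06), and Gpr18 by 2.05 (adjusted p = 0.00188), whereas the cannabinoid receptor Cnr2 fell by 2.50, the proton sensor Gpr65 by 2.43, the lysophosphatidic acid receptor Lpar6 by 2.09 and the sphingosine 1-phosphate receptor S1pr1 by 1.82. In C498 vs NC, Ccrl2 rose (2.02), and Cnr2 (-1.31), Lpar6 (-1.23) and the complement C5a receptor C5ar1 (-1.17, adjusted p = 0.003) fell. C498 before LPS lowered 4 relative to LPS, namely Gpr18 (-1.54), the chemerin receptor Cmklr1 (-1.36), S1pr2 (-1.12) and C5ar1 (-1.02), and Gpr183 rose (1.14). LPS after C498 raised 3 and lowered 4, with Ccrl2 (2.42) at the top. The share upregulated was 5% in both C498 vs NC and C498+LPS vs LPS, beside 5.64% and 5.39% of all tested genes, and the share downregulated was 15% and 20%, beside 1.36% and 2.18%. For LPS after C498 the shares were 15% and 20%, beside 2.52% and 3.13%. Ccrl2 was at 78.2 and 67.0 TPM in NC, 1090.5 and 963 TPM in LPS, 315 and 281 TPM in C498, and 1627 and 1565 TPM in C498+LPS. Its groups stood in the same order as those of Hcar2, and its interaction was -1.39 (adjusted p = 0.0214).

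Of 18 genes that make, release, carry or remove the ligands (or, for Anxa1, encode one), 15 were tested, and 3 were upregulated (20%, beside 5.55% of all tested genes) and 2 downregulated (13.3%, beside 6.68%) in LPS vs NC. Ptgs2, the inducible cyclooxygenase that starts prostaglandin synthesis, rose by a log2 change of 6.64 (adjusted p = 1.23e-05) and the PGE2 synthase Ptges by 3.55 (adjusted p = 6.79e-06). Lpcat2, which makes platelet-activating factor, rose by 1.06, while the ectonucleotidase Entpd1 fell by 1.75 and Pafah2, which breaks down platelet-activating factor, by 1.15. Ptgs2 was at 5.64 and 2.54 TPM in NC, 549 and 425 TPM in LPS, 83.8 and 73.8 TPM in C498, and 856 and 719.9 TPM in C498+LPS. It was high in both groups with LPS and also rose in C498 vs NC (4.04, adjusted p = 0.000309), where the PGE2 synthase gene Ptges2 fell (-1.11). Ptges fell by 1.07 in C498+LPS vs LPS (adjusted p = 0.00295) and Lpcat2 by 1.27 (adjusted p = 0.00227), and the constitutive cyclooxygenase Ptgs1 rose by 1.42 (adjusted p = 0.0132). LPS after C498 raised Ptgs2 (3.30) and Ptges (2.12) and lowered Entpd1 (-1.24). Of the list, 6.67% rose and 6.67% fell in C498 vs NC (5.64% and 1.36% of all tested genes), 6.67% and 13.3% in C498+LPS vs LPS (5.39% and 2.18%), and 13.3% and 6.67% in C498+LPS vs C498 (2.52% and 3.13%). The interaction was called for Ptgs2 (-3.34, adjusted p = 0.0252) and Ptges (-1.43, adjusted p = 0.0351).

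Among 52 genes of signaling below the receptors (G protein subunits, adenylyl cyclases, phosphodiesterases, protein kinase A subunits, phospholipases, PI3-kinase genes, RGS proteins, receptor kinases and arrestins), 48 were tested, and 2 were upregulated (4.17%, beside 5.55% of all tested genes) and 6 downregulated (12.5%, beside 6.68%) in LPS vs NC. Pde4b, a phosphodiesterase that degrades cyclic AMP, rose by 2.39 on the log2 scale (adjusted p = 0.000495), while Rgs2, an inhibitor of Gq signaling, fell by 2.55 (adjusted p = 0.000191) and beta-arrestin 1 (Arrb1) by 2.02 (adjusted p = 0.00827). In C498 vs NC, 4 rose, namely Rgs1 (2.54), Rgs2 (1.62), Rgs16 (1.39) and Pde4b (1.10), and Rgs14 fell (-1.02), which is 8.33% and 2.08% of the list beside 5.64% and 1.36% of all tested genes. In C498+LPS vs LPS, Rgs2 (2.63, adjusted p = 0.000653), the adenylyl cyclase gene Adcy6 (1.25) and Rgs16 (1.07) rose, and the PI3-kinase gene Pik3cg (-1.499), Rgs14 (-1.47) and Adcy7 (-1.10) fell, 6.25% in each direction beside 5.39% and 2.18%. When C498+LPS was set against C498, 1 rose (Pde4b, 1.54) and 5 fell, with Arrb1 (-1.89) the lowest, 2.08% and 10.4% of the list beside 2.52% and 3.13% of all tested genes. The interaction was called for Rgs1 (-1.84, adjusted p = 0.019). Rgs2 was at 18.6 and 14.2 TPM in NC, 1.54 and 2.43 TPM in LPS, 54.7 and 49.8 TPM in C498, and 15.9 and 18.8 TPM in C498+LPS, so that C498+LPS overlapped with NC. The median of the list lay at -0.19 in LPS vs NC and 0.014 in C498 vs NC, beside -0.17 and 0.015 over all tested genes.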

How the data were processed

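Per the labels, the authors used fastp, HISAT2, StringTie and RSEM, and they deposited TPM levels per gene and sample with group means and gene lengths. Versions, genome build and annotation are not given in the sources used here. Gene positions are from GENCODE M21 (GRCm38) and promoters from RefSeq (GRCm38.p6). TPM keeps no read number, so depth is unknown and the DESeq2 test of the authors, which needs counts, was not repeated.

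Log2(TPM + 1) of the 12189 genes averaging 1 TPM or more was fitted with limma 3.58.1 (R 4.3.3), with 1 mean per group and a variance trend. With 2 samples against 2, an exact two-sided permutation test cannot go below p = 0.333. The members, the gene lists and the tests were chosen with earlier results of these data known, and the motifs and the rhodopsin-family set after values were seen. Named genes are the 10 receptors, called genes of the other 4 lists (at most 6 a list and comparison, by size), and the 5 genes most like Gpr84. Single markers, genes that overlap a receptor, list genes at 0 and Gpr141 are named besides, chosen after their values were seen. Steps were tested on simulated data. Alternatives were a pseudocount of 0.1 TPM, no filter, a minimum mean of 5 TPM, centring, quantile normalization, a fit of compared groups alone, a constant prior variance, replicate number as a block, no threshold on the fold change, and leaving out each sample.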

Additional observations from a re-analysis of the deposited data

Results flagged for a closer look

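The response of Hcar2 to LPS differed between cells with and without C498 by a log2 value of -1.32 in the interaction of C498 and LPS (limma, adjusted p = 0.031). The call was lost under 10 of 16 alternatives: no filter on low values, centring, quantile normalization, no variance trend, and leaving out any 1 of the LPS, C498 or C498+LPS samples (adjusted p from 0.0728 to 0.169). Its response was 3.14 without C498 and 1.81 with it, and the level was higher with LPS in 2 of 2 samples each time. Both pairs of groups had 2 samples, and the level of Hcar2 before LPS was 4.35-fold higher in C498 than in NC.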

How the results depend on the processing

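In LPS vs NC and C498 vs NC the number of the 10 receptors (Gpr84 included, as a description) called in each direction stayed within 1.5 times under every alternative tried, as it did in C498+LPS vs C498. In C498+LPS vs LPS the count of upregulated receptors among the 9 other than Gpr84 was 1, and it was 0 with quantile normalization, 2 without a fold change threshold, and 0 to 1 when single samples were left out. For the interaction, the count of 1 became 0 without a filter on low values, with centring, with quantile normalization and without a variance trend, and ranged from 0 to 1 when single samples were left out. The cause was not tested. Signs turned only for values that were not called: Ptafr (0.17 with centring, 0.012 with quantile normalization) and Ptger2 (0.053 and 0.047) in C498+LPS vs C498, and, when single samples were left out, Ptafr in C498+LPS vs C498 (-0.22 to 0.13), Adora2a (-0.13 to 0.042), Adora2b (-0.38 to 0.048) and Ptger4 (-0.31 to 0.069) in C498 vs NC, Adora2b in C498+LPS vs LPS (-0.38 to 0.051) and Adora2b in the interaction (-0.21 to 0.22). Centring moved the median of all tested genes from -0.17 to -0.000539 in LPS vs NC, from 0.015 to -0.11 in C498 vs NC and from -0.18 to 0.038 in C498+LPS vs C498. Deviations of same-numbered samples correlated positively in all 6 pairs of groups, at 0.102 to 0.168 for the 3 pairs with NC and at 0.0397 to 0.0417 for the other 3. As not every pair was above 0.1 and the labels tie the numbers to no animal or batch, the samples were not treated as paired, and whether they are is not known. With the replicate block, 5 of the 9 receptors other than Gpr84 were upregulated and 3 downregulated in LPS vs NC, as without it, and the counts of the other comparisons were also as without it. TPM gives no depth, so counting noise is known only through the replicates.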

Other observations

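Among the 56 other rhodopsin-family receptors, Gpr141, an orphan receptor, lay nearest to Fpr1 in the effect of C498, with log2 changes of -1.95 in C498 vs NC and -2.60 in C498+LPS vs LPS, and 0.48 in LPS vs NC. It was picked after its values were seen.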
